A study of Mus musculus with 36 samples.

Results

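The genes described here are 10 antioxidant genes that the transcription factor NRF2 is known to switch on: Slc7a11, Gclc, Gclm, Gsr, Txnrd1, Srxn1, Nqo1, Hmox1, Osgin1 and G6pdx. They were chosen by name, with earlier results of these data known. Each gene's value is the mean log2 signal of the array probe sets annotated to its symbol alone. Of these 10 genes, 9 had such probe sets, out of 23152 genes measured in all. G6pdx had none, and its level was not analysed here. The liver RNA came from female C57BL/6 mice, aged 10 to 12 weeks, that were Dpt-null (KO) or wild-type (WT) littermates. Dpt encodes dermatopontin, a small protein of the extracellular matrix. Mice received CCl4, a solvent that hepatocytes convert to a toxic radical, or olive oil as control, for 8 weeks. CCl4 was injected subcutaneously 3 times a week at 0.1 ml/kg, as a 2% solution in week 1, 4% in week 2, 5% in week 3, 6% in week 4 and 8% from then on, and livers were collected 24 hours after the last injection. The oil groups held 8 WT and 10 KO libraries and the CCl4 groups 9 of each genotype, with 1 Affymetrix whole-transcript array per library. The labels do not state which cells lack Dpt or how the allele was made, and they tie no library to a numbered animal, so p-values measure the spread between these libraries. In whole liver, fewer cells of a type and less RNA per cell cannot be told apart.

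NRF2, the product of Nfe2l2, is held at a low level by KEAP1, which marks it for degradation. Electrophiles and oxidants modify KEAP1, and NRF2 then accumulates, pairs with a small MAF protein and binds antioxidant response elements near its target genes. The repressor BACH1 occupies the same elements and keeps Hmox1 low until haem displaces it. In liver, the targets supply glutathione and NADPH and clear reactive compounds.

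RefSeq promoter windows, 250 bases before to 50 bases after an annotated start on build GRCm38.p6, were available for 7 of the 10 genes (9 windows, of which 3 belong to Txnrd1). The core of the antioxidant response element, TGACNNNGC, was searched on both strands. It was found in 4 of the 9 windows: once each for Srxn1, Gclm, G6pdx and 1 of the Txnrd1 windows, in all 4 as its reverse complement. Of all 32851 windows of this length, 4071 (12.4%) hold the letters. The match begins 28 bases after the start in Srxn1, 134 bases before it in Gclm, 92 before in Txnrd1 and 57 before in G6pdx. The windows below are those of the genes that changed with CCl4 and have an entry, and capitals mark the match.
Srxn1, chr2:152105274-152105573, plus strand: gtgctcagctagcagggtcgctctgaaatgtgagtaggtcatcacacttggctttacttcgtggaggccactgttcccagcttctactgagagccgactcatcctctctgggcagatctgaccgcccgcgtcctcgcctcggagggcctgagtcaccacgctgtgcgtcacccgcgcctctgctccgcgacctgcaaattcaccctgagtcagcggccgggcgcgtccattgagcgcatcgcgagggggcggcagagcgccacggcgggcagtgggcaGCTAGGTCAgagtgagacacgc
Gclm, chr3:122245307-122245606, plus strand: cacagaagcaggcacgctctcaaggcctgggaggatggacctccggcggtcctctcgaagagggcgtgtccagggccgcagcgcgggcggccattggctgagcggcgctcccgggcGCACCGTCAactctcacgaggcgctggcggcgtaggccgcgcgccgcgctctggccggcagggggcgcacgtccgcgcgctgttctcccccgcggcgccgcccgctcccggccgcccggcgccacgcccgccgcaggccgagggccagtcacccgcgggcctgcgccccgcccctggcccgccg
Slc7a11, chr3:50443564-50443863, minus strand: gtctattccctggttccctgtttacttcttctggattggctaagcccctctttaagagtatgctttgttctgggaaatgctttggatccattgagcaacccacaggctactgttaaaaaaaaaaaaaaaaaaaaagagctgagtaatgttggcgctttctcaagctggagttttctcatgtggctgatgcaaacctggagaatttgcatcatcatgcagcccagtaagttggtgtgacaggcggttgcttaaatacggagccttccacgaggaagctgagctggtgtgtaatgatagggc
Nqo1, chr8:107403156-107403455, minus strand: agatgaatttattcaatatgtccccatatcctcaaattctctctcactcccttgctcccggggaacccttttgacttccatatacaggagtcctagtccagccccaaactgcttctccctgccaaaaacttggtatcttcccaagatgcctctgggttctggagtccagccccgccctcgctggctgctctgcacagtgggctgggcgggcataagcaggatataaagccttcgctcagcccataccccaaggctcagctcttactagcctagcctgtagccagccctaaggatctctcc
A match is a description of letters, and its absence from a window says nothing of elements elsewhere or of other forms of the element within it. Srxn1 rose with CCl4 and Gclm fell in KO, and both hold the letters. Slc7a11 and Nqo1 rose, and neither window holds them.

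Several libraries stood apart or went against their labels. Dpt lay at 5.59 to 6.48 in WT after oil, but KO oil library 10 read 7.40 and WT CCl4 library 1 read 3.18. Groups were kept as labelled, so the genotype differences and the CCl4 differences include these 2 libraries. In KO oil library 10 the mean of macrophage markers was 8.05 and that of stellate cell and myofibroblast markers 8.01. The KO oil medians were 5.83 and 5.55, and the KO CCl4 medians 7.74 and 7.63. Whether its treatment label is right was not tested. Without it, 6479 genes were called with CCl4 in KO, against 5389 with it. Dpt was lower in KO than in WT after CCl4 by a log2 difference of -4.38 ± 0.53 (standard error, limma adjusted p = 1.9e-05, 9 against 9). After oil its genotype difference was not called with all libraries. Without the 2 libraries against their Dpt label it was -2.45 and was called (limma adjusted p = 9.27e-09). In 6 oil libraries (WT 1, 2 and 3, KO 1, 3 and 4) Y-linked genes were expressed, although all mice are labelled female. No CCl4 library expressed them. Pancreatic, muscle or adipocyte markers stood out in 7 libraries (KO oil 10, WT CCl4 3, 4, 5, 8 and 9, and KO CCl4 5). The mean of periportal hepatocyte genes was 5.60 in both WT CCl4 library 3 and KO CCl4 library 5, against group medians of 8.50 and 8.41. Alb, the albumin gene of hepatocytes, read 11.37 to 12.54 in all 36 libraries, but 1 gene does not settle how much other tissue a library holds. The mean of hepatocyte markers was 7.19 in WT CCl4 library 3 and 7.37 in KO CCl4 library 5, against group medians of 9.47 and 9.39. The skeletal muscle mean was 10.17 in WT CCl4 library 3, the pancreatic mean 11.5 in WT CCl4 library 4 and the adipocyte mean 8.75 in KO CCl4 library 5. Their group medians were 3.82, 4.01 and 5.28. Values without the libraries that stood apart are given beside the results that depend on them. Array medians over all genes lay between 4.11 and 4.38.

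Setting CCl4 against oil in WT livers asked how the 9 genes respond to repeated injury where Dpt is present. Slc7a11, Nqo1, Hmox1 and Srxn1 rose, by log2 differences of 0.87 to 1.77, and none of the 9 fell. A gene is said to have risen or fallen, or to be called, where limma gave it a Benjamini-Hochberg adjusted p under 0.05 among all 23152 genes. Of all genes, 24.5% were called in this comparison, 13.2% higher and 11.3% lower. The median difference of the 9 genes was 0.26, against -0.04 for all genes. With each array centred on its median, 2358 genes were called higher and 5380 lower, against 3048 and 2618 without centring, and the same count of 4 members rose.

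The same comparison in KO called Hmox1, Slc7a11 and Srxn1 higher and Gclm lower. Of all genes, 23.3% were called, 13.4% higher and 9.89% lower. The median difference of the 9 genes was -0.03, against -0.04 for all genes. With centred arrays 2 members rose and 1 fell, the rise of Srxn1 being lost, and over all genes 2505 were called higher and 4710 lower, against 3100 and 2289.

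**Figure D1:**
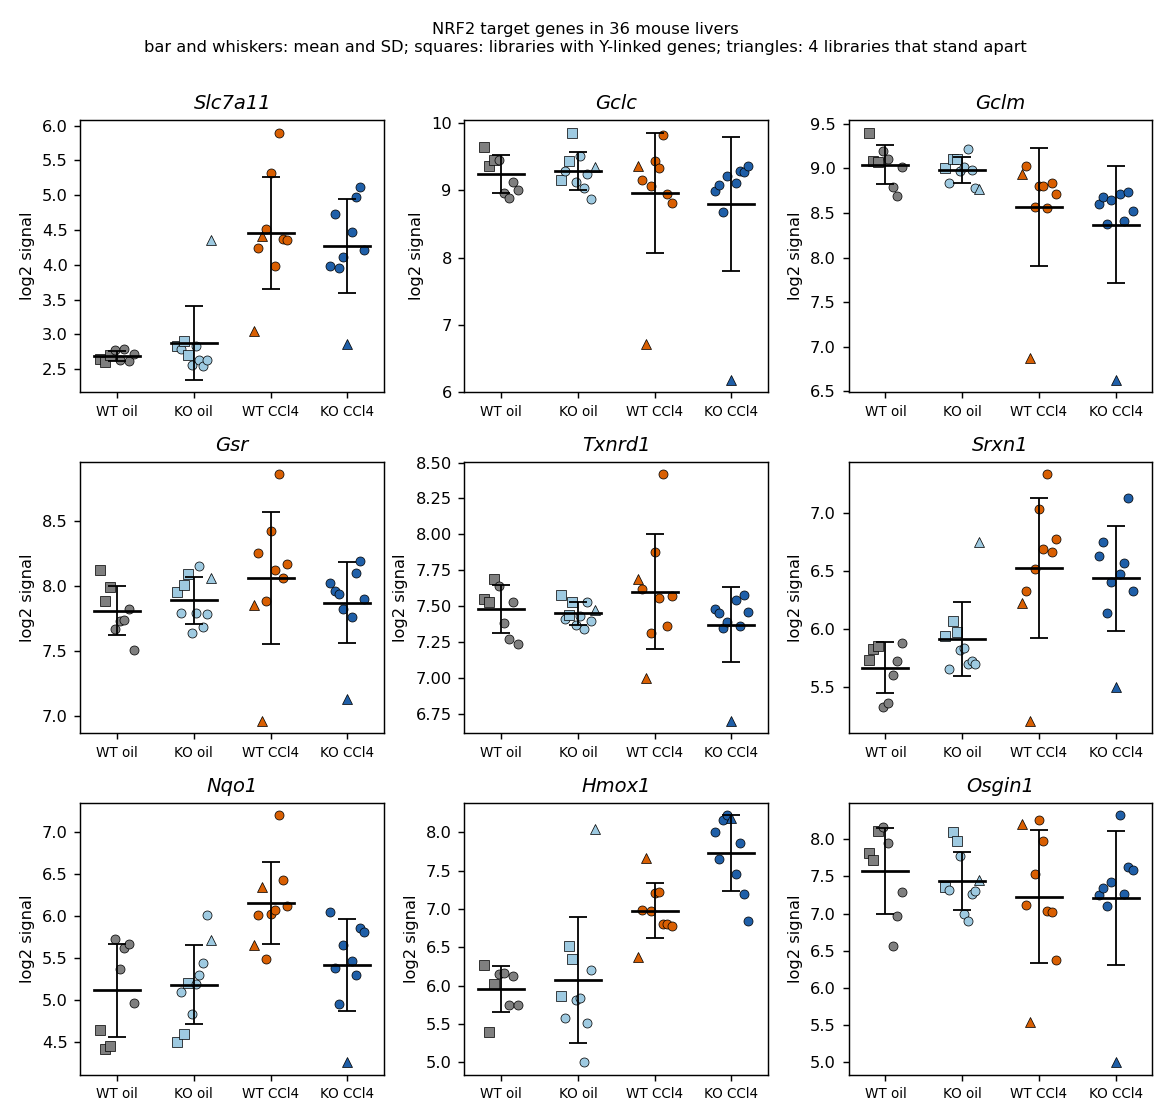
Log2 signal of the 9 measured NRF2 target genes in each of 36 liver libraries, by group; the long bar is the group mean and the whiskers are 1 SD. Squares are the 6 oil libraries with Y-linked genes and triangles are KO oil 10, WT CCl4 1, WT CCl4 3 and KO CCl4 5. Slc7a11 and Hmox1 separate WT CCl4 from WT oil without overlap, and Gclc and Gclm each have 1 low library in each CCl4 group.

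Glutathione supply begins with cystine. Slc7a11 encodes the light chain of the cystine/glutamate exchanger. Its log2 signal was 2.60 to 2.79 in WT after oil (median 2.68) and 3.05 to 5.90 in WT after CCl4 (median 4.37). It was 2.55 to 4.36 in KO after oil (median 2.75) and 2.86 to 5.12 in KO after CCl4 (median 4.21). In WT, every CCl4 library lay above every oil library, as did 2.79% of all genes in the higher direction and 3.64% in either. In KO the groups overlapped, because KO oil library 10 read 4.36 and the next KO oil library 2.90, while KO CCl4 library 5 read 2.86. The log2 difference was 1.77 ± 0.28 in WT, a 3.42-fold rise (9 against 8 libraries, limma adjusted p = 2.91e-05), and 1.39 ± 0.26 in KO, a 2.61-fold rise (9 against 10, limma adjusted p = 0.000149, higher than the oil mean in 8 of 9). Without the 10 libraries of doubtful label or composition (the 2 against their Dpt label, the 6 with Y-linked genes and the 2 low in periportal genes) it was 1.96 in WT and 1.78 in KO. In all oil libraries but KO oil 10 it read 2.90 or less, under the lowest array median of 4.11. No background level was measured apart from this, so the folds are those of the deposited signal.

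The other part of the exchanger showed the same direction. Slc3a2, the heavy chain that carries Slc7a11 to the membrane, rose by 0.80 ± 0.16 in WT (limma adjusted p = 0.000511) and by 1.00 ± 0.15 in KO, and was above the oil mean in 9 of 9 libraries of each genotype. In WT its 9 CCl4 libraries, at 7.34 to 8.46, all lay above its oil libraries, at 6.80 to 7.21 (as for 2.79% of all genes).

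Gclc and Gclm encode the catalytic and modifier subunits of glutamate-cysteine ligase, the first and limiting enzyme of glutathione synthesis. Neither rose. Gclc was 8.89 to 9.64 in WT after oil (median 9.25), 6.71 to 9.82 in WT after CCl4 (median 9.16), 8.87 to 9.86 in KO after oil (median 9.27) and 6.18 to 9.37 in KO after CCl4 (median 9.11). All 4 groups overlapped, and 2 libraries, WT CCl4 3 and KO CCl4 5, lay far below the rest. The log2 difference was -0.27 ± 0.32 in WT (limma adjusted p = 0.558) and -0.49 ± 0.31 in KO (limma adjusted p = 0.263). Without WT CCl4 library 3 the WT difference was 0.01, so its sign rests on that library, and without KO CCl4 library 5 the KO difference was -0.16. They were 0.14 and -0.05 without the 10 libraries, neither of them called.

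Gclm was 8.69 to 9.40 in WT after oil (median 9.07) and 6.87 to 9.03 in WT after CCl4 (median 8.80). It was 8.77 to 9.22 in KO after oil (median 8.99) and 6.63 to 8.73 in KO after CCl4 (median 8.60). In KO the groups did not overlap, with all 9 CCl4 libraries below all 10 oil libraries, as did 0.112% of all genes in the lower direction and 0.315% in either. These KO shares are counted with oil library 10, whose macrophage mean of 8.05 lay within the KO CCl4 range. In WT 3.64% of all genes separated in either direction. In WT all 9 CCl4 libraries lay below the oil mean and 3 below every oil library. Gclm fell by 0.61 ± 0.21 on the log2 scale in KO (limma adjusted p = 0.0336). In WT the difference was -0.48 ± 0.23 and was not called (limma adjusted p = 0.120). Without KO CCl4 library 5 the KO difference was -0.39 and the call was lost (limma adjusted p = 0.0903), and without all 10 libraries it was -0.38 and was called (limma adjusted p = 0.00224). The KO call was also lost without KO oil library 4 (-0.60, limma adjusted p = 0.0502) or 7 (-0.59, limma adjusted p = 0.0524), and without the 6 libraries with Y-linked genes (-0.57, limma adjusted p = 0.125). With the brightest probe set of the gene it was lost as well (-0.51, limma adjusted p = 0.113). The WT difference was -0.20 without the 10 libraries, and it was called without KO CCl4 library 5 (-0.48, limma adjusted p = 0.0350), which enters it through the shared spread alone.

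Gsr encodes glutathione reductase, which regenerates reduced glutathione with NADPH. It was 7.51 to 8.12 in WT after oil (median 7.78) and 6.96 to 8.86 in WT after CCl4 (median 8.12), with 5 of 9 CCl4 libraries above every oil library and 1, library 3, below all of them. In KO it was 7.64 to 8.15 after oil (median 7.87) and 7.13 to 8.19 after CCl4 (median 7.94), largely the same range. The difference was 0.26 ± 0.15 in WT (limma adjusted p = 0.221) and -0.03 ± 0.15 in KO (limma adjusted p = 0.919). Without WT CCl4 library 3 the WT difference was 0.39 and was called (limma adjusted p = 0.0236), and without the 10 libraries it was 0.56 (limma adjusted p = 0.000984). The KO difference was 0.06 without KO CCl4 library 5 and 0.15 without the 10, not called in either.

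Txnrd1 and Srxn1 belong to the thiol branch. Txnrd1 encodes cytosolic thioredoxin reductase. It was 7.24 to 7.69 in WT after oil (median 7.53), 7.00 to 8.42 in WT after CCl4 (median 7.57), 7.34 to 7.58 in KO after oil (median 7.44) and 6.70 to 7.58 in KO after CCl4 (median 7.45). The groups overlapped, and WT CCl4 library 7 was the highest of all. The difference was 0.12 ± 0.12 in WT (limma adjusted p = 0.482) and -0.08 ± 0.12 in KO (limma adjusted p = 0.658). Without the 7 libraries carrying markers of other tissues the WT difference was 0.34 and was called (limma adjusted p = 0.0350), but without the 10 libraries it was 0.26 and was not (limma adjusted p = 0.133). The KO difference was 0.04 without the 10.

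Srxn1 encodes sulfiredoxin, which repairs overoxidised peroxiredoxins. Its log2 signal was 5.33 to 5.88 in WT after oil (median 5.73) and 5.21 to 7.34 in WT after CCl4 (median 6.67). It was 5.66 to 6.75 in KO after oil (median 5.83) and 5.50 to 7.13 in KO after CCl4 (median 6.48). In WT, 8 of 9 CCl4 libraries lay above every oil library and library 3 lay below them all. In KO, oil library 10 at 6.75 lay within the CCl4 range, and CCl4 library 5 at 5.50 lay below every oil library. Srxn1 rose by 0.87 ± 0.20 in WT, 1.82-fold (limma adjusted p = 0.00179), and by 0.52 ± 0.19 in KO, 1.43-fold (limma adjusted p = 0.0410). Without the 10 libraries these were 1.18 and 0.81 and both were called. The KO call was near the threshold: it was lost in 14 of the 36 fits that left out 1 library (KO oil 1, 2 and 4 to 9, and KO CCl4 1, 2, 4, 6, 7 and 8), with log2 differences of 0.43 to 0.53, and without the 6 libraries with Y-linked genes (0.55, limma adjusted p = 0.0911).

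The probe sets of Srxn1 disagreed. Of its 5 probe sets, 3 were higher after CCl4 in both genotypes (up to 1.74 in WT and 1.31 in KO), and the brightest was lower, by a log2 difference of -0.40 in WT and -0.25 in KO. The 16 probe sets of Slc7a11 ranged from -0.13 to 3.36 in WT, 15 of them above 0. The 18 probe sets of Gclc were all below 0 in both genotypes, as were all 12 of Gclm in WT and 11 of 12 in KO.

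**Figure D2:**
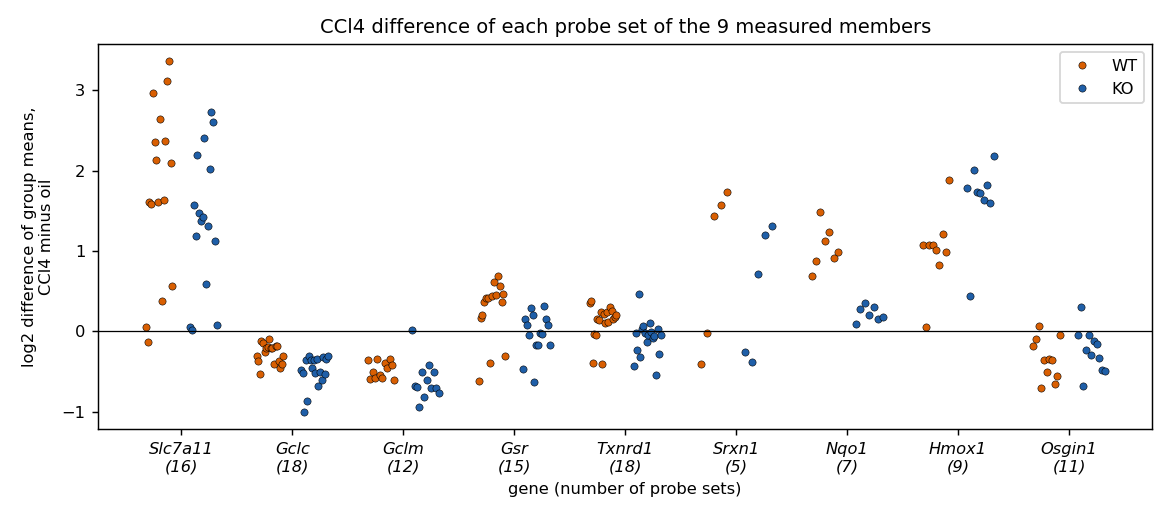
Log2 difference of group means, CCl4 minus oil, for each probe set of the 9 measured genes in WT (orange) and KO (blue); the number of probe sets stands under each gene. The 7 Nqo1 probe sets lie between 0.69 and 1.49 in WT and between 0.09 and 0.36 in KO, and the Srxn1 probe sets lie on both sides of 0.

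Nqo1 encodes NAD(P)H quinone dehydrogenase, which reduces quinones in a single step that avoids radical intermediates. It was 4.41 to 5.72 in WT after oil (median 5.17) and 5.49 to 7.20 in WT after CCl4 (median 6.07). It was 4.50 to 6.01 in KO after oil (median 5.20) and 4.25 to 6.05 in KO after CCl4 (median 5.46). In WT, 7 of 9 CCl4 libraries lay above every oil library, while in KO the CCl4 range covered the oil range. Nqo1 rose by 1.04 ± 0.24 in WT, 2.06-fold (limma adjusted p = 0.00186, above the oil mean in 9 of 9). In KO the difference was 0.23 ± 0.23, with a 95% interval of -0.23 to 0.69 (limma adjusted p = 0.518, above the oil mean in 7 of 9).

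The WT oil level of Nqo1 separated libraries with and without Y-linked genes, while in KO the ranges overlapped. In WT after oil it was 4.41 to 4.64 in the 3 libraries with them and 4.96 to 5.72 in the other 5. In KO after oil it was 4.50 to 5.20 in 3 libraries and 4.83 to 6.01 in the other 7. Without these 6 libraries the WT rise was 0.68 and was not called (limma adjusted p = 0.0618), and without the 10 libraries it was 0.72 and was called (limma adjusted p = 0.0162). Nqo1 was not alone in this. Gsr in WT after oil was 7.88 to 8.12 in the libraries with Y-linked genes and 7.51 to 7.82 in the others, and its KO oil ranges overlapped. The other members overlapped in both genotypes, although median Gclc in WT after oil was 9.45 with Y-linked genes and 9.00 without.

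Hmox1 encodes haem oxygenase 1, which breaks down haem and is abundant in macrophages that clear red cells. It was 5.40 to 6.27 in WT after oil (median 6.08) and 6.38 to 7.66 in WT after CCl4 (median 6.97), with no overlap (as for 2.79% of all genes in the higher direction). It was 5.00 to 8.04 in KO after oil (median 5.85) and 6.85 to 8.22 in KO after CCl4 (median 7.86). The KO groups overlapped only through oil library 10, at 8.04, since the next KO oil library read 6.52. Hmox1 rose by 1.02 ± 0.25 in WT, 2.03-fold (limma adjusted p = 0.00356), and by 1.66 ± 0.24 in KO, 3.15-fold (limma adjusted p = 4.58e-06). It was above the oil mean in 9 of 9 libraries of each genotype, and all 9 of its probe sets were above 0 in both. Without the 10 libraries the rises were 0.98 and 2.01.

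Osgin1, a growth inhibitor induced by oxidative stress, was 6.56 to 8.17 in WT after oil (median 7.76) and 5.55 to 8.26 after CCl4 (median 7.11). In KO it was 6.90 to 8.10 after oil (median 7.34) and 5.00 to 8.32 after CCl4 (median 7.34). The groups overlapped throughout. The difference was -0.34 ± 0.33 in WT (limma adjusted p = 0.472) and -0.23 ± 0.31 in KO (limma adjusted p = 0.648). Their size and sign rest on few libraries: the WT difference was -0.13 without WT CCl4 library 3 and 0.01 without the 7 libraries with markers of other tissues, and the KO difference was 0.04 without KO CCl4 library 5. Without the 10 libraries they were -0.05 in WT and 0.23 in KO, and none of these values was called.

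The comparison of KO with WT asked whether loss of Dpt alters these genes. After oil, 0 of 9 were called in limma and 0 had an unadjusted p under 0.05, where 0.0346% of all genes were called and 3.79% had an unadjusted p under 0.05. The log2 differences ran from -0.13 for Osgin1 to 0.25 for Srxn1. The intervals were wide: that of Nqo1 ran from -0.40 to 0.56 and that of Hmox1 from -0.39 to 0.62. Dpt itself was not called after oil with all libraries, so the lack of calls does not show that the members are alike.

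After CCl4, again 0 of 9 were called in limma, where 0.0518% of all genes were called. Nqo1 and Hmox1 were the 2 members with an unadjusted p under 0.05, as had 8.43% of all genes, and they lay on opposite sides of 0. Nqo1 was lower in KO, with a log2 difference of -0.74 ± 0.23 (95% interval -1.21 to -0.27, limma adjusted p = 0.268). All 9 KO libraries lay below the WT mean of 6.15 and 5 lay below every WT library, while the ranges overlapped. All 7 Nqo1 probe sets were lower in KO. Hmox1 was higher in KO, with a difference of 0.75 ± 0.25 (95% interval 0.25 to 1.25, limma adjusted p = 0.297). Of the 9 KO libraries, 8 lay above the WT mean of 6.98 and 5 lay above every WT library, and all 9 probe sets were higher in KO. Without the 10 libraries the differences were -0.64 for Nqo1 (limma adjusted p = 0.206) and 0.71 for Hmox1 (limma adjusted p = 0.0719). With libraries weighted by their fit to their group, Hmox1 was called (0.78, limma adjusted p = 0.0303), in a fit that called 268 of all genes, against 12 without weights.

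The other 7 genes differed by -0.23 to -0.02 between genotypes after CCl4, but for most the sign was not settled. Without KO CCl4 library 5 the differences were 0.16 for Gclc, 0.26 for Osgin1, 0.02 for Gclm and 0.02 for Srxn1, and without the 7 libraries with markers of other tissues that of Slc7a11 was 0.15, none of them called. That of Osgin1 was also above 0 without WT CCl4 library 1, 4, 5 or 6 (0.02 to 0.11), and without the 10 libraries (0.16). Txnrd1 was the closest to the threshold among them, at -0.23 ± 0.12 (95% interval -0.47 to 0.01, limma adjusted p = 0.611), and was below the WT mean of 7.60 in 9 of 9 KO libraries. That of Slc7a11 was -0.19 ± 0.27 (95% interval -0.74 to 0.35), so the arrays could not resolve differences of this size in either direction.

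**Figure D3:**
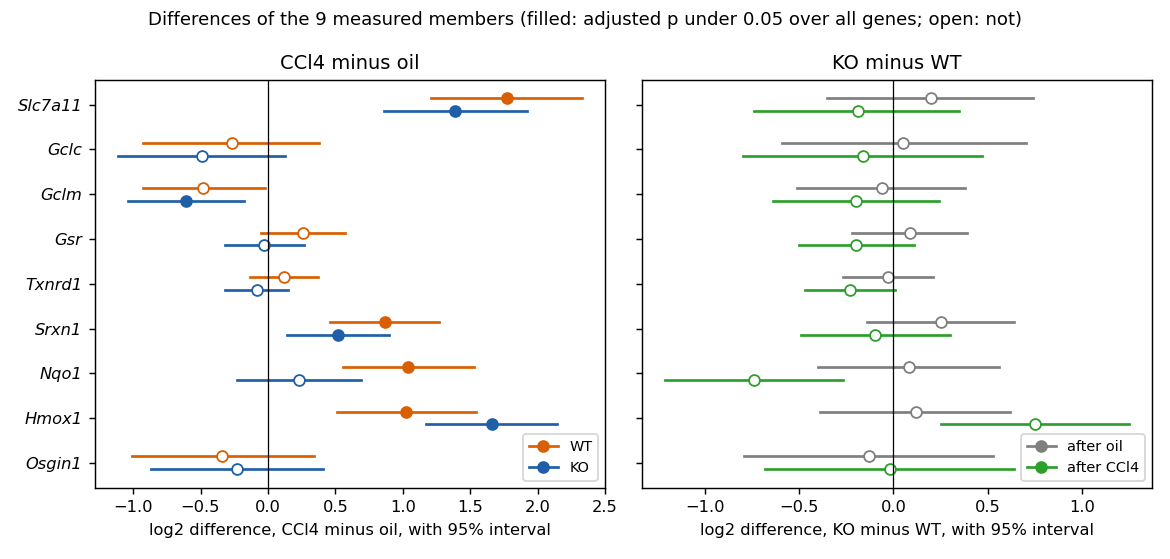
Log2 differences of the 9 measured genes with 95% intervals from limma, CCl4 minus oil in WT and KO (left) and KO minus WT after oil and after CCl4 (right). Filled points have an adjusted p under 0.05 over all 23152 genes. All genotype differences are open, and after CCl4 the intervals of Nqo1 (-1.21 to -0.27) and Hmox1 (0.25 to 1.25) lie on opposite sides of 0.

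The interaction, which is the CCl4 difference in KO minus that in WT, tested directly whether the response depended on genotype. None of the 9 genes was called in limma, and neither was any of the 23152 genes (0 in both directions), while 1356 genes (5.86%) had an unadjusted p under 0.05. Dpt was thus not called either. Without the 2 libraries against their Dpt label its interaction was -2.52 and was called (limma adjusted p = 2.79e-05). Nqo1 had an interaction of -0.82 ± 0.33 (95% interval -1.49 to -0.15, unadjusted limma p = 0.0183, adjusted p = 0.848). That of Hmox1 was 0.63 ± 0.35 (95% interval -0.08 to 1.34, limma adjusted p = 0.869). A called rise of Nqo1 in WT beside an uncalled difference in KO was therefore not shown to differ between genotypes. Without the 10 libraries the Nqo1 interaction was -0.48 and that of Hmox1 1.04, neither of them called.

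Hmox1 moved with markers of macrophages and of other non-parenchymal cells. Of 12 macrophage markers, 8 rose and 1 fell in WT with CCl4, and 9 rose and 0 fell in KO. In each genotype 75.0% were called, beside 24.5% (WT) and 23.3% (KO) of all genes. Gpnmb, a marker of lipid-laden macrophages, rose by 4.54 in WT and 4.53 in KO, and Clec4f, which marks resident Kupffer cells, fell in WT by 1.03. The mean log2 signal of the 12 markers was 5.56 to 5.94 in WT after oil and 6.63 to 7.51 in WT after CCl4. It was 5.70 to 8.05 in KO after oil and 7.17 to 8.34 in KO after CCl4. The KO oil value of 8.05 belongs to library 10, which also had the highest Hmox1 of its group, and the lowest WT CCl4 value of 6.63 belongs to library 1, which also had the lowest Hmox1 of its group, at 6.38. After CCl4 the markers differed between KO and WT by a median of 0.56, with 1 of the 12 called (Itgax, 1.45 higher in KO, limma adjusted p = 0.0415), and their part in the Hmox1 result was not tested.

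Over the 36 libraries, deviations of Hmox1 from its group mean correlated with those of the macrophage mean at r = 0.82, and at r = 0.75 in the 26 libraries left without the 10. Its correlation with the mean of 9 stellate cell and myofibroblast markers was 0.76 over 36 libraries and 0.48 over 26. It was 0.57 and 0.39 with neutrophil markers, and 0.53 and 0.15 with duct cell markers. Of the 9 stellate cell and myofibroblast markers, 7 rose and 0 fell with CCl4 in each genotype. That is 77.8% called, beside 24.5% (WT) and 23.3% (KO) of all genes. The mean of these 9 markers was 5.41 to 5.72 in WT after oil and 6.37 to 7.84 in WT after CCl4. In KO it was 5.26 to 8.01 after oil (8.01 in library 10) and 7.36 to 7.91 after CCl4. The macrophage correlation was 0.13 for Nqo1, and -0.38 in the 26 libraries. Hmox1 was not the only member that moved with cell type markers. Slc7a11 correlated with duct cell markers at 0.70 over 36 libraries and 0.58 over 26, and Srxn1 at 0.52 and 0.45. These are descriptions of libraries that share their composition and array scale. The mean of 12 hepatocyte markers was 9.87 to 10.18 in WT after oil and 9.24 to 10.25 in KO after oil. After CCl4 it was 7.19 to 9.87 in WT and 7.37 to 9.74 in KO, where the lowest values belong to WT library 3 and KO library 5. These 2 libraries also had the lowest Gclc, Gclm, Gsr, Txnrd1, Srxn1 and Osgin1 of their groups. The part of cell composition in these levels was not tested.

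**Figure D4:**
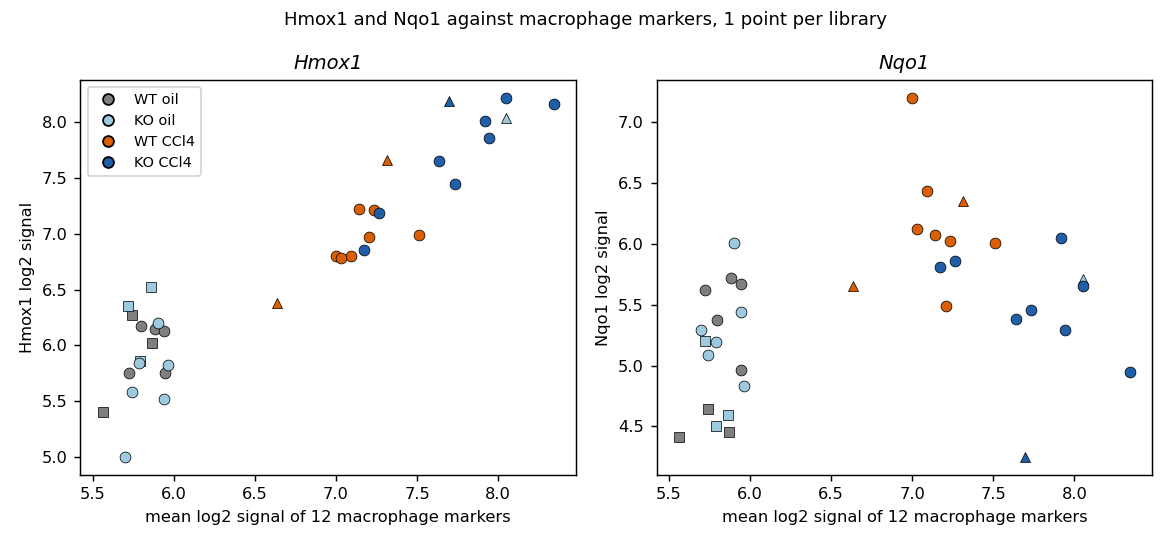
Log2 signal of Hmox1 (left) and Nqo1 (right) against the mean log2 signal of 12 macrophage markers, 1 point per library, with symbols as squares for the 6 oil libraries with Y-linked genes and triangles for KO oil 10, WT CCl4 1, WT CCl4 3 and KO CCl4 5. Within groups the correlation over 36 libraries was 0.82 for Hmox1 and 0.13 for Nqo1, and KO oil 10 lies among the CCl4 libraries.

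Correlations between members from library to library varied widely. Within groups, Slc7a11 and Srxn1 correlated at r = 0.70 over 36 libraries, 0.81 without the 2 low in periportal genes and 0.74 without the 10. Gclc and Gclm correlated at 0.91 over 36 libraries, but at 0.28 over 34 and 0.07 over 26, so that relation rests on the 2 libraries. Nqo1 and Hmox1 correlated at 0.04. WT CCl4 library 7 had the highest Slc7a11, Gclc, Gsr, Txnrd1, Srxn1 and Nqo1 of its group, at 5.90, 9.82, 8.86, 8.42, 7.34 and 7.20. It was not the highest for Hmox1, Gclm or Osgin1. In KO after CCl4, library 8 had the highest Slc7a11 (5.12), Gclm (8.73), Gsr (8.19), Txnrd1 (7.58) and Srxn1 (7.13).

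Outside the set, the genes whose within-group deviations were most like those of Hmox1 over 36 libraries were Axl (r = 0.90), C1qa (0.88), Elmo2 (0.87), Slc11a1 (0.87) and Myo1c (0.86). In 26 libraries these were 0.69 to 0.81. For Nqo1 they were Acot2 (r = 0.77), Slc20a1 (0.69), Cyp2b10 (0.67), Ccnd1 (0.63) and Acadl (0.63), and in 26 libraries these were 0.67, 0.52, 0.44, 0.39 and 0.45. For the mean of the 9 genes they were Plpp2 (0.94), Krt18 (0.93), Krt8 (0.93), Tm4sf4 (0.92) and Tmprss2 (0.91), which were 0.72 to 0.78 in 26 libraries. The genes like Hmox1 include a receptor of phagocytes (Axl) and a complement chain (C1qa), and those like Nqo1 include a mitochondrial thioesterase (Acot2) and a drug-inducible cytochrome P450 (Cyp2b10). All points share the libraries and the array scale, and these values are descriptions.

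Of 11 measured regulators of the pathway, 1 rose and 0 fell in WT, where 24.5% of all genes were called, and 1 rose and 1 fell in KO, where 23.3% were. Nfe2l2, which encodes NRF2 itself, was 7.73 to 8.25 in WT after oil and 8.31 to 8.84 after CCl4, with no overlap (as for 2.79% of all genes in the higher direction). It rose by 0.51 ± 0.09 (limma adjusted p = 0.000203). In KO it was 7.90 to 8.58 after oil and 8.35 to 8.67 after CCl4, and rose by 0.30 ± 0.09 (limma adjusted p = 0.0120). The KO call was lost without the 6 libraries with Y-linked genes (0.22, limma adjusted p = 0.103) and with centred arrays (0.22, limma adjusted p = 0.0535). Keap1 differed by -0.14 in WT and -0.22 in KO and Bach1 by -0.20 and -0.08, none of them called. These calls depended on the processing. Keap1 in KO was called without KO oil 7, KO CCl4 2 or KO CCl4 8 (-0.25 to -0.24), with the median of probe sets (-0.42, limma adjusted p = 0.0465), with centred arrays (-0.30, limma adjusted p = 0.0143), among genes above the median level (-0.22, limma adjusted p = 0.0418) and with array weights (-0.19, limma adjusted p = 0.0410). Keap1 in WT was called with the brightest probe set (-0.33, limma adjusted p = 0.0381), and Bach1 in WT with centred arrays (-0.30, limma adjusted p = 0.0462) and with array weights (-0.28, limma adjusted p = 0.0424). Mafg, a small MAF partner, fell in KO by 0.28 and differed by -0.09 in WT, and the KO call was lost without the 10 libraries (-0.20, limma adjusted p = 0.175). NRF2 is controlled largely at the protein level, which arrays do not measure.

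**Figure D5:**
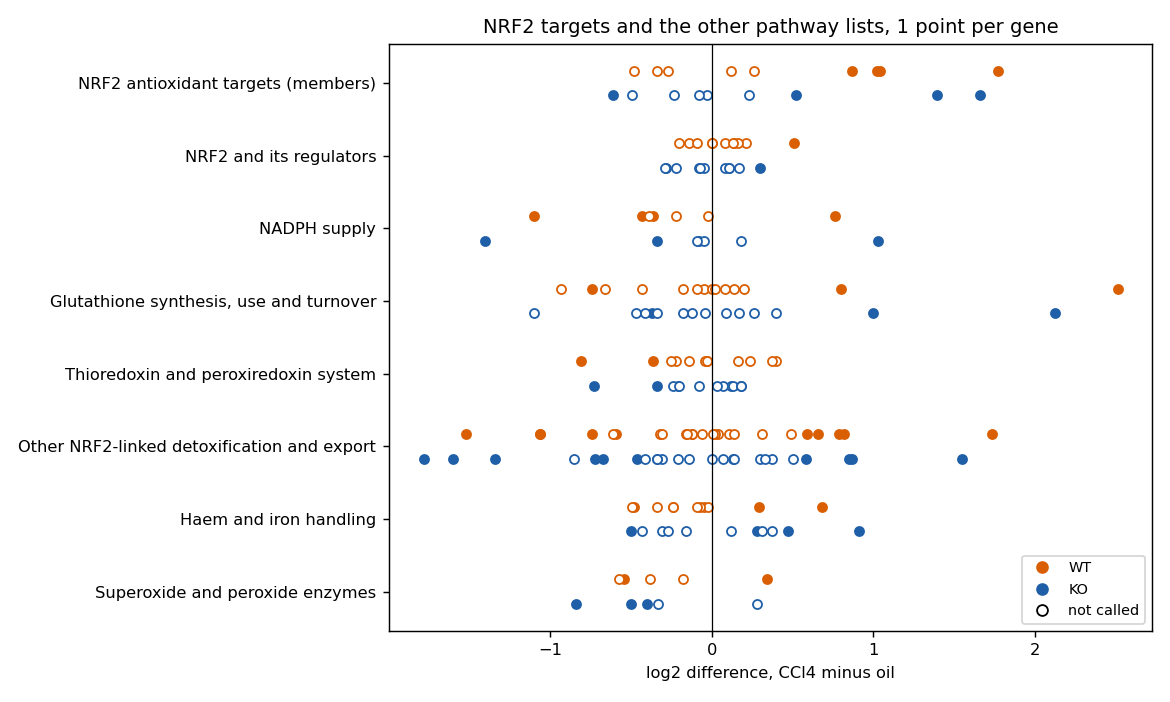
Log2 difference, CCl4 minus oil, of each gene in the NRF2 set and in 7 lists of related genes, in WT (orange) and KO (blue); filled points have a limma adjusted p under 0.05. Across the 7 lists, 12 genes rose and 13 fell in WT, and 11 rose and 16 fell in KO, of 85.

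Over the 7 lists of related genes together, 12 of 85 rose and 13 fell in WT, and 11 rose and 16 fell in KO. These are 29.4% and 31.8% of the list, beside 24.5% and 23.3% of all genes, and the medians were -0.06 and -0.08, beside -0.04 for all genes in both comparisons. Changes ran in both directions within most lists. In the genotype comparisons and the interaction, 0 of the 85 were called in limma. Blvra came closest after CCl4: it was 5.31 to 5.84 in WT and 5.62 to 6.24 in KO, a difference of 0.35 ± 0.09 (limma adjusted p = 0.150) that was called without KO oil library 10 (0.35, limma adjusted p = 0.0400) or KO CCl4 library 9 (0.39, limma adjusted p = 0.0482), in fits that called 100 and 86 of all genes, against 12 with every library. It is named here after its values were seen.

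NADPH supply was split. Of 7 genes, 1 rose and 3 fell in WT (57.1% called, beside 24.5% of all genes). In KO 1 rose and 2 fell (42.9%, beside 23.3%). Pgd, the second dehydrogenase of the pentose phosphate pathway, was 6.51 to 7.12 in WT after oil and 7.24 to 8.59 after CCl4, and rose by 0.76 ± 0.16 in WT (limma adjusted p = 0.000887) and by 1.03 ± 0.15 in KO. Me1, cytosolic malic enzyme, was 8.84 to 9.72 in WT after oil and 7.61 to 9.50 after CCl4, and fell by 1.10 ± 0.27 in WT (limma adjusted p = 0.00276) and by 1.40 ± 0.25 in KO. Idh1, cytosolic isocitrate dehydrogenase, fell by 0.43 and 0.34. Both Idh1 calls were lost without the 6 libraries with Y-linked genes (-0.40, limma adjusted p = 0.0838 in WT, and -0.35, limma adjusted p = 0.0909 in KO), and the KO call also without any of KO oil 2, 5, 6 and 9 and KO CCl4 3, 5 and 8. Pgls, the lactonase between both dehydrogenases, fell in WT by 0.36 and differed by -0.05 in KO, and the WT call was lost without the 10 libraries (-0.33, limma adjusted p = 0.0635).

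Among 14 genes of glutathione synthesis, use and turnover, 2 rose and 1 fell in each genotype. That is 21.4% called, near the 24.5% (WT) and 23.3% (KO) of all genes. Gpx3, the secreted glutathione peroxidase, was 5.21 to 6.17 in WT after oil and 6.64 to 9.70 after CCl4, with no overlap (as for 2.79% of all genes in the higher direction). It rose by 2.51 ± 0.38 in WT (limma adjusted p = 1.86e-05, above the oil mean in 9 of 9) and by 2.12 ± 0.36 in KO. Gpx1, the cytosolic peroxidase, was 10.52 to 10.77 in WT after oil and 9.47 to 10.49 after CCl4, and fell by 0.74 ± 0.10 in WT and by 0.37 ± 0.10 in KO (limma adjusted p = 0.00511). The other rise in both genotypes was Slc3a2, described above with its partner.

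Of 12 genes of the thioredoxin and peroxiredoxin system, 0 rose and 2 fell in each genotype. That is 16.7% called, below the 24.5% (WT) and 23.3% (KO) of all genes. Prdx6, a peroxiredoxin that uses glutathione, fell by 0.81 ± 0.14 in WT and by 0.73 ± 0.13 in KO, with the 9 WT CCl4 libraries below every oil library (3.64% of all genes separated in either direction in WT). Txnrd3, a thioredoxin reductase of testis, fell by 0.36 in WT and 0.34 in KO. Its calls were lost without the 6 libraries with Y-linked genes (-0.34, limma adjusted p = 0.122 in WT, and -0.36, limma adjusted p = 0.0620 in KO), and without single libraries (WT oil 6 or 7 or WT CCl4 4 or 6 in WT, KO oil 5 or 9 or KO CCl4 3 in KO).

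Detoxification and export was the longest list, with 25 genes. In WT 5 rose and 5 fell, and in KO 4 rose and 6 fell. In each genotype 40.0% were called, beside 24.5% (WT) and 23.3% (KO) of all genes. Abcc4, an efflux pump of the basolateral membrane, was 4.05 to 4.68 in WT after oil and 4.93 to 7.49 after CCl4, with no overlap (as for 2.79% of all genes in the higher direction). It rose by 1.73 ± 0.24 in WT and by 1.55 ± 0.23 in KO. Ces1g, a carboxylesterase, fell by 1.52 ± 0.55 in WT (limma adjusted p = 0.0408) and by 1.78 ± 0.52 in KO (limma adjusted p = 0.0108). Cyp2a5, a cytochrome P450 that oxidises coumarin, fell by 1.06 ± 0.35 in WT and by 1.60 ± 0.33 in KO, and its signal cannot be told apart from that of near-identical family members by these data. Gsta3, a glutathione transferase, fell by 1.06 ± 0.34 and 1.34 ± 0.32. The WT calls of Ces1g and Cyp2a5 were lost without the 7 libraries with markers of other tissues (-0.76, limma adjusted p = 0.0778, and -0.82, limma adjusted p = 0.0938), and that of Gsta3 without the 6 with Y-linked genes (-1.02, limma adjusted p = 0.105). The WT call of Ces1g was also lost in 10 of the 36 fits without 1 library (-1.52 to -1.06), and that of Cyp2a5 without WT oil 4 or 6 or WT CCl4 3 (-0.93 to -0.88).

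Haem and iron handling held 11 genes, of which 2 rose and 1 fell in WT (27.3% called, beside 24.5% of all genes). In KO 3 rose and 1 fell (36.4%, beside 23.3%). Slc48a1, which moves haem out of lysosomes, was 7.91 to 8.36 in WT after oil and 8.21 to 9.15 after CCl4, and rose by 0.68 ± 0.14 in WT (limma adjusted p = 0.000766) and by 0.91 ± 0.13 in KO. Blvra, biliverdin reductase, which acts after haem oxygenase, rose in KO by 0.47 ± 0.09 (limma adjusted p = 0.000151) and differed by -0.05 in WT. Fech, ferrochelatase, the last enzyme of haem synthesis, fell in KO by 0.50 ± 0.14 and differed by -0.24 in WT, and the KO call was lost without the 10 libraries (-0.25, limma adjusted p = 0.0886). Ftl1, ferritin light chain, fell in WT by 0.48 ± 0.14 and differed by -0.27 in KO, and the WT call was lost without the 7 libraries with markers of other tissues (-0.32, limma adjusted p = 0.207).

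Of 5 superoxide and peroxide enzymes, 1 rose and 1 fell in WT (40.0% called, beside 24.5% of all genes). In KO 0 rose and 3 fell (60.0%, beside 23.3%). Sod1, cytosolic superoxide dismutase, fell in WT by 0.54 ± 0.14 (limma adjusted p = 0.00624) and differed by -0.33 in KO. Cat, catalase of peroxisomes, fell in KO by 0.50 ± 0.14 (limma adjusted p = 0.00878) and differed by -0.38 in WT. Sod2, the mitochondrial dismutase, fell in KO by 0.40 ± 0.11 and differed by -0.18 in WT, and Nqo2, a quinone reductase related to Nqo1, fell in KO by 0.84 ± 0.22 and differed by -0.57 in WT. Without single libraries the uncalled differences passed the test for Cat in WT (WT CCl4 1 or 2, or KO CCl4 5), Nqo2 in WT (WT CCl4 1 or KO CCl4 5) and Sod1 in KO (KO oil 7 or 10, or WT CCl4 3). Array weights called each of them too (Cat -0.26, limma adjusted p = 0.0285, Nqo2 -0.41, limma adjusted p = 0.0399, Sod1 -0.33, limma adjusted p = 0.00114), as did centred arrays. Without the 10 libraries Cat and Nqo2 were called in WT. For these genes a call in 1 genotype alone was not shown to be a difference between genotypes, since 0 interactions were called. The same test left Dpt uncalled, so it cannot show that the genotypes respond alike.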

How the data were processed

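Liver RNA of the 36 libraries was labelled with the Affymetrix WT PLUS kit and hybridised to MoGene-2_0-st arrays, per the labels' protocols. The authors deposited 1 log2 signal per probe set and array, made with RMA per the submitters' processing notes. The software version and the genome build used are not given in the sources here. Another deposited table has 36 columns whose names match no sample, and it was not used. Of 269479 probe sets, 233753 carry 1 gene symbol in the platform annotation and were kept, while 5139 carry several and 30587 none. Symbols of 2189 genes were updated with the RefSeq table of GRCm38.p6. Averaging probe sets by symbol gave 23152 genes, with no filter on low values. Precision is limited by the number of arrays, which carry no read depth.

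With limma 3.58.1 (R 4.3.3), 4 group means were estimated from the 36 arrays together, and variances were moderated by empirical Bayes. Its 5 contrasts were adjusted by Benjamini-Hochberg over all genes, and errors given with a difference are standard errors. The fit was run on simulated arrays with known changes in the WT CCl4 group. Their noise was independent between genes and held no libraries that stood apart, so the run checks the code alone. Tables and figures were made with Python 3.11.15, numpy 2.4.6, pandas 2.3.3 and matplotlib 3.10.9. The members and lists were chosen with earlier results of these data known. The 7 related lists hold 85 measured genes. Named genes are the members, Dpt, Nfe2l2, Keap1, Bach1, up to 4 called genes per list by size of change, and the 5 genes most like Hmox1, Nqo1 and the members' mean, leaving out provisional symbols and small RNAs. The 11 lists of cell type markers served to describe libraries: markers of other tissues were counted as standing out at 1 log2 above the median of all arrays, and periportal genes as low at 2 log2 below the median of all arrays. Alternatives were the median or brightest probe set of a gene, centred arrays, only genes above the median level, trended and robust variances, array weights, the replicate number as a block, and fits without sets of libraries or without each library in turn.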

Additional observations from a re-analysis of the deposited data

Results flagged for a closer look

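In 10 of 36 sets of values (9 genes in 4 groups), 1 library lay farther from its nearest neighbour than the spread of its group allows by Dixon's test, and chance alone would mark about 1 group in 20. Of these, 3 fall on the library labelled KO oil 10, which read 8.04 for Hmox1 (next 6.52), 4.36 for Slc7a11 (next 2.90) and 6.75 for Srxn1 (next 6.07). It is also 1 of the 2 libraries whose Dpt level goes against its label, and its macrophage mean of 8.05 lies within the range of the KO CCl4 libraries. A further 2 fall on WT CCl4 library 3, at 6.71 for Gclc (next 8.81) and 6.87 for Gclm (next 8.55). The other 5 fall on KO CCl4 library 5, at 6.18 for Gclc (next 8.68), 6.63 for Gclm (next 8.38), 6.70 for Txnrd1 (next 7.35), 7.13 for Gsr (next 7.76) and 5.00 for Osgin1 (next 7.10). Both of these libraries have the lowest hepatocyte marker mean of their group, at 7.19 and 7.37. KO CCl4 library 5 was nevertheless at 8.19 for Hmox1, within 0.03 of the highest of its group.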

How the results depend on the processing

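With the brightest probe set alone, Srxn1 changed sign with CCl4, to -0.40 in WT (limma adjusted p = 0.0259) and -0.25 in KO (limma adjusted p = 0.173). The number of members called in KO with CCl4, 4, was 2 with the brightest probe set and 2 without the 6 libraries with Y-linked genes, and ranged from 2 to 4 when 1 library was left out (2 without KO oil 4 or KO oil 7). In WT it ranged from 4 to 5. Between genotypes after CCl4, 0 members were called, but 1 with array weights (Hmox1), where 268 of all genes were called against 12 without weights. The numbers in the labels do not pair the libraries: over 51 same-numbered pairs the correlation of deviations ran from -0.283 to 0.329, and 4 of 35 libraries correlated best with their own number. With the replicate number as a block, 1 member was called between genotypes after CCl4 (Hmox1, 0.75, limma adjusted p = 0.0275) with 133 of all genes, in a fit where KO oil 10 has a term of its own.

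Of the 85 related genes, 25 were called in WT and 15 without the 6 libraries with Y-linked genes, and 27 in KO and 42 with array weights. Counts over all genes moved the same way, from 5666 to 3403 and from 5389 to 7825. Leaving out 1 library gave 23 to 30 in WT, 24 to 33 in KO and 0 to 1 between genotypes after CCl4, where array weights also gave 1. No call of the interaction or of KO against WT after oil appeared among members or related genes under any of the 11 other settings or the 36 fits that left out 1 library. Gsr in WT was called with array weights (0.37). With the brightest probe set the KO calls of Gclm, Prdx6, Gsta3, Cat, Idh1, Txnrd3 and Fech were lost, besides that of Srxn1. The WT calls of Idh1, Pgls, Txnrd3, Ces1g, Cyp2a5 and Gsta3 were lost with it too. In the 11 settings, 44 uncalled differences of members or Dpt changed sign and stayed uncalled. Slc7a11 lies below the filter on level, so that alternative gave it no value. Fits without sets of libraries have fewer arrays, and the cause of the other changes was not tested. The signal of low genes over background was not measured.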
